A study of Mus musculus with 4 samples.

Results

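The first lymph node round of the B16 melanoma model was described by comparing 1 array of the line B16-RI with 1 array of the parental line B16, over 32383 of the 33012 probes of the array. The other 629 probes carried an analyzer flag over 5000 on at least 1 of these arrays and were left out. B16 is a mouse melanoma line of the C57Bl6 strain. For B16-RI, parental B16F1 cells were injected intradermally into the back skin of C57BL6 mice and melanoma cells that had reached the lymph nodes were put back into culture, which makes 1 round of injection. B16-RI cells were injected again, and the lines B16-RII, from lymph node metastases, and B16-RIIL, from lung metastases, were cultured after 2 rounds. All lines were grown in the same serum-containing medium, so parental and passaged cells differ by the round in the mouse and the culture that followed it. RNA of different passage numbers was pooled for each line. The labels pair 1 array with each line, so that no test was possible, sizes are given without a replicate check, and clonal outgrowth, time in culture and the stay in the lymph node cannot be told apart. How many mice or nodes went into B16-RI is not given in the sources used here.

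Lymphogenous spread asks a melanoma cell to leave the skin tumour, to survive in lymph and to grow in the node. Genes known for parts in this include matrix proteins and the proteases that cut them, integrins, secreted factors that act on vessels, and stress and nutrient programs. In this setting osteopontin, encoded by Spp1, is a secreted phosphoprotein that binds integrins and CD44. Pigment genes driven by the melanocyte regulator Mitf mark the lineage, and remain active in pigmented B16 cells.

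On this array each probe gives a single chemiluminescence signal. Signals of B16-RI and of the later lines were put on the scale of B16 by removing, within each of 2 probe sets, the median difference over probes detected on both arrays. The result is called the scaled signal. A probe was detected where its signal-to-noise ratio (S/N) was at least 3. A probe detected on B16-RI alone and at least 2-fold above B16 was called gained, and the reverse was called lost. A probe detected on both arrays and at least 2-fold apart was called higher or lower on B16-RI. Where a side was not detected it was given its own signal, or the dimmest signal detected on its array if that was brighter, so that a fold is written as at least that size. Differences are log2 of B16-RI over B16.

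Both lines carried the pigment cell markers that the array could read. Dct and Tyrp1, enzymes of melanin synthesis, had scaled signals of 2041 and 2628 on B16 and 1855 and 2567 on B16-RI. All 6 of the 6 melanocyte markers on the array were detected on all 4 arrays and 0 were called, with differences between -0.68 for Mitf and -0.03 for Tyrp1. Summed, their scaled signals came to 6395 in the parent, 5961 in B16-RI, 5990 in B16-RII and 5815 in B16-RIIL. Of 7 endothelial markers 0 were detected on B16 or B16-RI. Of 7 leukocyte and macrophage markers 2 were detected on B16 and 1 on B16-RI, with summed scaled signals between 5.92 and 8.92 over the 4 arrays. Lyz2 was detected on all 4 arrays, at 5.01 on B16 and 3.29 on B16-RI, and Csf1r on B16, at 1.28, and not on B16-RI. Ptprc, the common leukocyte antigen, Adgre1, Cd68, Itgam and Cd14 were not detected on either line. Among 6 T cell markers 2, Cd2 and Lck, were detected on each line, and Cd3d, Cd3e and Cd3g were not. Cd2 read 3.02 on B16 and 2.27 on B16-RI and was not called. The T cell kinase Lck was higher, at 1.1 on B16 and 2.55 on B16-RI. The summed T cell signal ranged from 6.49 to 9.40. Of the B cell markers, Cd79a had a bright probe that read 56.0 on B16 and 62.9 on B16-RI and a dim probe that was gained at 2.02, while Cd79b and Ms4a1 were not detected on either line. Of 7 fibroblast and reticular cell markers 3 were detected on each line, not all the same ones. Col1a1 was lost. The other detected members were not called and read above B16. Col1a2 read 6.32 on B16 and 11.4 on B16-RI, Pdgfrb 1.74 and 2.77, and Pdpn 1.67, not detected, and 3.32. The signal summed over all 7, detected or not, was 14.3 in the parent, 20.6 in B16-RI and 12.8 and 19.7 in the later lines. Of 3 keratinocyte markers on the array 1 was detected on B16 and 0 on B16-RI. The part of other cell types in the differences below was not tested.

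Most of the transcriptome was alike in the pair. Of 12168 probes detected on both arrays, 95.7% lay within 2-fold and 84.5% within 1.5-fold, and log2 scaled signals correlated across these probes at r = 0.980, where probes are not independent replicates. Gained probes numbered 1069 (3.3% of 32383), higher probes 162 (0.5%), lower probes 357 (1.1%) and lost probes 1498 (4.63%). Differences of at least 8-fold were shown by 57 gained and 80 lost probes. Of all calls 1231 were above and 1855 below B16, so that 39.9% were above. That split depends on the scaling, since the deposited normalized signal without centring put 1617 above and 1468 below, or 52.4% above. The order of the higher and lower classes turned with it, to 409 higher and 200 lower probes. Taken with 1 probe per gene, 9159 named genes were detected on at least 1 of the pair, of which 442 were gained (4.83%), 108 higher (1.18%), 192 lower (2.1%) and 619 lost (6.76%). The median difference over these genes was -0.0025.

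**Figure D1:**
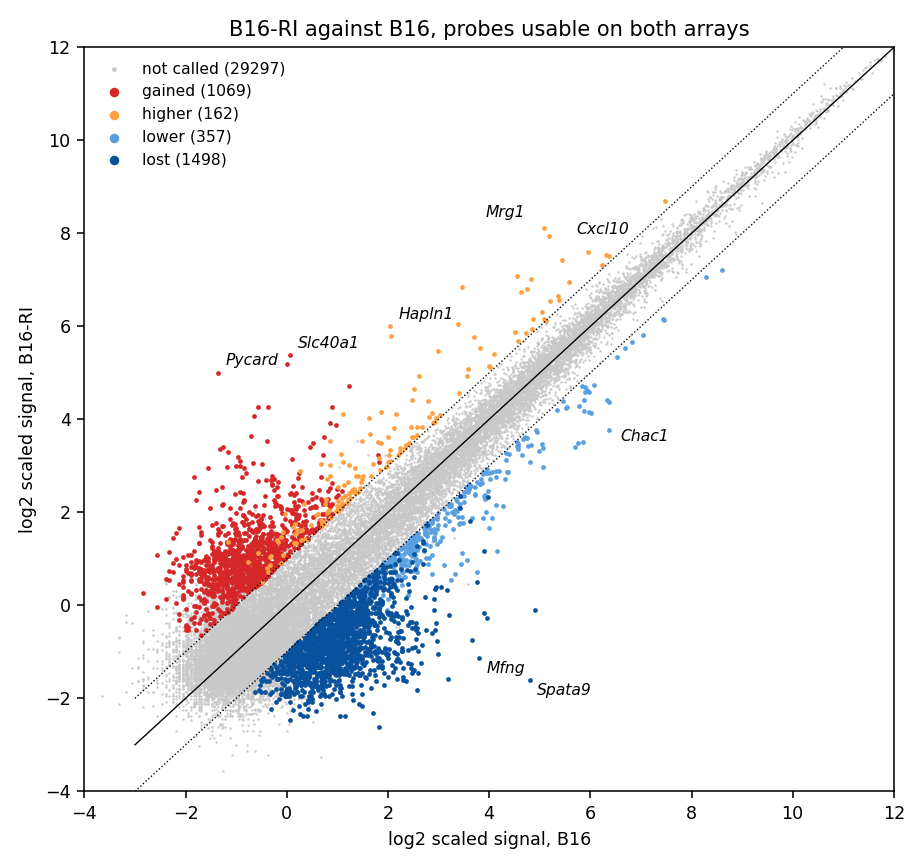
Scaled signal of each usable probe on B16 (x axis) and B16-RI (y axis), both as log2, with the solid line at equality and dotted lines at 2-fold. Each point is 1 probe of 1 array per line; gained probes form the cloud at the upper left edge of the dim signals, lost probes the cloud at the lower right, and Pycard, Slc40a1, Spata9 and Mfng stand far from both clouds.

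Many of the gained and lost calls sat at the limit of detection. The median S/N of gained probes on B16-RI was 4.45, and 661 of 1069 were under 5. On B16 the median S/N of lost probes was 4.46, with 910 of 1498 under 5. Olfactory and vomeronasal receptor genes, known mainly from sensory neurons, served as a gauge of such calls. Of their 838 usable probes 26 were gained (3.1%) and 42 lost (5.01%), against 3.31% and 4.62% of all other probes. The counts over gene lists below are read against the shares of named genes, since each list was likewise taken with 1 probe per gene detected on at least 1 of the pair.

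The later lines, hybridised to separate arrays, gave a second look at the bright side of each call. Gained probes were detected on B16-RII in 31.2% and on B16-RIIL in 31.8% of cases, against 8.58% and 9.88% of probes detected on neither B16 nor B16-RI. Lost probes, detected on B16 and not on B16-RI, were detected on these arrays about as often, in 33.2% and 34% of cases. On the log2 scale, 27% of 1060 gained probes on B16-RII and 32.6% on B16-RIIL lay nearer to B16-RI than to B16. For 1489 lost probes these shares were 72.4% and 64%. Detection on both later arrays was found for 11.9% of 647 gained probes with S/N of 3 to 5, 26.4% of 329 with S/N of 5 to 10 and 61.3% of 75 with S/N of at least 10. Of the 26 gained receptor probes 0 were detected on both. Lost probes were detected on neither later array in 59.3% of 899 probes with S/N of 3 to 5 on B16, 44.2% of 502 and 34.2% of 79 with S/N of at least 10. Of the 75 strong signals gained, 46 were present on both later arrays and 21 on neither, and of the 79 strong signals lost, 27 were absent on both and 27 present on both. The later lines descend from B16-RI and were scaled to the same B16 array, so these counts describe the 4 arrays and give no independent replicate.

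**Figure D2:**
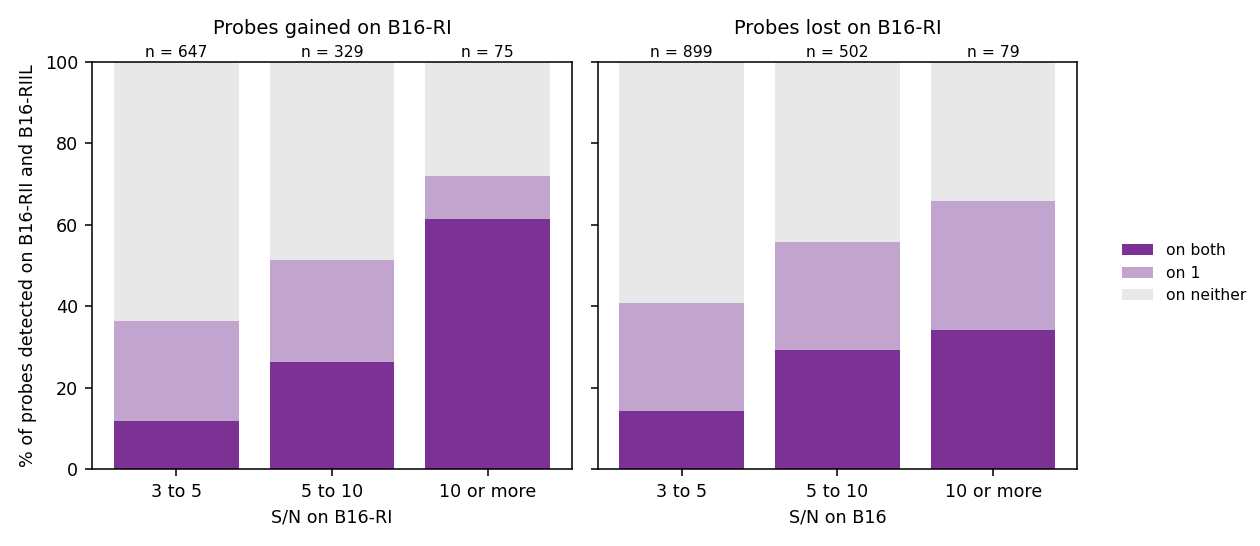
Share of gained probes (left) and lost probes (right) that were detected on both, 1 or neither of the arrays of B16-RII and B16-RIIL, in % (y axis), by S/N on the array where the probe was detected (x axis), with the number of probes above each bar. Detection on both rises from 11.9% to 61.3% with S/N for gained probes and from 14.2% to 34.2% for lost probes.

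The largest gain belonged to Pycard, also called Asc, the adaptor that joins inflammasome sensors to caspase-1. On B16 its scaled signal was 0.39, not detected. B16-RI stood at 32.0, at least 82.2-fold above, and the later lines at 55.8 and 45.4. Slc40a1, ferroportin, the exporter of cellular iron, went from 1.04, not detected, to 41.6, at least 40.0-fold, and stood at 48.4 and 35.8 on the later lines. Both were absent in the parent and bright on all 3 passaged lines. Mrap, an accessory protein of melanocortin receptors, went from 0.34, not detected, to 7.70 and read 15.8 and 28.5 on the later lines. The choline transporter-like gene Slc44a4 went from 0.45, not detected, to 9.76, with 10.7 and 10.3 later. The secreted cytokine-like gene Fam3b went from 0.40, not detected, to 10.2, with 7.63 and 10.0 later. Lrmp, a membrane protein of the endoplasmic reticulum known from lymphoid cells, went from 0.76, not detected, to 11.6, with 13.1 and 12.8 later. D630003M21, a predicted protein, went from 0.77, not detected, to 19.3, with 16.4 and 14.3 later. All 7 of these genes were detected on each passaged line and not on the parent, and Mrap read highest on B16-RIIL. The other 5 of the 12 largest gains by bound were Olfr820, D830016O14Rik, Fgg, Cdc20 and Tex19.1. Of these, D830016O14Rik was detected on B16-RII at 1.72, and all others were detected on neither later array. Olfr820, an olfactory receptor gene, read 16.9 on B16-RI and under 1 on the other arrays. Fgg, the fibrinogen gamma chain, read 5.39 on B16-RI and at most 0.685 elsewhere. For Cdc20, an activator of the anaphase-promoting complex, the gained probe read 7.93 on B16-RI, while a brighter probe of the gene read 136 on B16 and 195 on B16-RI and was not called.

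Among the gained probes with S/N of at least 10 and detection on both later arrays were 46 probes that kept their call under each of 5 other scalings, 32 of them with a gene name. This set was formed after its values were seen. The genes named next were picked from these 32, and no theme among them was tested. Adamts5, an aggrecan-cutting protease, went from 0.49, not detected, to 5.25, with 4.69 and 4.93 later. Sod3, the extracellular superoxide dismutase, went from 0.53, not detected, to 4.26, with 2.79 and 2.21 later. Tnfaip6, a hyaluronan-binding protein, reached the limit with 1.17, not detected, and 2.34. Lgr5, a receptor for R-spondins, went from 0.93, not detected, to 4.22, with 7.84 and 5.63 later, and had S/N of 2.99 on B16, just short of detection. Dab2, an endocytic adaptor, went from 0.82, not detected, to 6.89, with 7.70 and 6.79 later. Art4, an ecto-ADP-ribosyltransferase, went from 0.73, not detected, to 4.46, with 8.75 and 5.28 later. Cd72, a surface protein known from B cells, went from 1.59, not detected, to 6.81, with 7.97 and 9.83 later, with S/N of 2.62 on B16. Detection on each passaged line and not on B16 was required for this set, so standing above the parent was largely fixed by the choice. Jph4 and Tspan33 did not hold their level: Jph4, a junctophilin, read 7.72 on B16-RI, 1.75 on B16-RII and 1.20 on B16-RIIL, and Tspan33, a tetraspanin, read 8.31, 1.15 and 2.45.

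Among genes detected on both lines, the 10 with the largest increases mostly kept the new level on the later lines. Hapln1, the link protein that fastens proteoglycans to hyaluronan, went from 4.14 to 64.0, or 15.5-fold, and read 33.5 on B16-RII and 31.2 on B16-RIIL. Tmem144 went from 4.15 to 55.7, with 61.1 and 48.6 later. Lpd, named lipidosin in the file, went from 11.1 to 115, with 93.6 and 78.2 later. Mrg1, a homeobox gene related to Meis1 by its name in the file, went from 33.9 to 276, with 225 and 179 later. The symbols Lpd and Mrg1 found no match in the gene table and are given as in the file. Ddx39b, an RNA helicase of splicing and mRNA export, went from 36.5 to 245, with 246 and 209 later. Etf1, the translation termination factor, went from 23.6 to 135, with 121 and 131 later. Akt1s1, a subunit of mTOR complex 1, went from 10.5 to 66.5, with 66.5 and 55.3 later. In each of these 7 genes the 3 passaged lines lay closer to each other than to the parent on the log2 scale. Ftmt, mitochondrial ferritin, was the exception among the 10 largest, at 2.16 on B16, 17.2 on B16-RI and not detected later. Tff3, a trefoil peptide, went from 0.45 to 2.56 and read 1.61 and 1.14 later. For Bnip3l, a mitophagy receptor, a dim probe went from 1.20 to 7.44, while the bright probe read 114 on B16 and 89.6 on B16-RI, so its probes disagree.

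The largest loss was that of Spata9, a gene known from testis, which read 27.9 in the parent and 0.33, 0.47 and 0.35, none detected, in the first, second node and lung lines. From parent to first round this was at least 84.7-fold lower. Mfng, a glycosyltransferase that modifies Notch receptors, went from 14.0 to 0.46, with 0.70 and 0.79 later, none detected. Plxna3, a semaphorin receptor subunit, went from 15 to 0.89, with 0.36 and 0.35 later, none detected. Tnfrsf11b, osteoprotegerin, the secreted decoy receptor for RANKL, went from 4.90 to 0.34 and was not detected later. Serpine2, an inhibitor of thrombin and plasminogen activators, went from 5.56 to 0.37 and was not detected later. Loxl2, a cross-linking enzyme of collagen, went from 4.43 to 0.49 and was not detected later. All 6 genes were detected on the parent alone. Pfn3, Ryr1 and 4930590J08Rik, the first an actin-binding profilin and the second a calcium channel of muscle, showed the same pattern from 5.49, 4.92 and 4.94 on B16. Ceacam2, a cell adhesion molecule, went from 3.98 to 0.34, not detected, and was detected on B16-RIIL at 0.54. The loss of Kctd12 was not kept. Kctd12 read 6.03 on B16, 0.51 and not detected on B16-RI, 1.35 on B16-RII and 5.62 on B16-RIIL. Rnf24, a ring finger protein, read 9.07 on B16, was not detected on B16-RI, read 1.49 on B16-RII and was not detected on B16-RIIL. For Spg7, named in the file for a cell matrix adhesion regulator, the lost probe read 4.26 on B16 with S/N of 3.23, while a brighter probe read 27.4 on B16 and 26.9 on B16-RI.

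**Figure D3:**
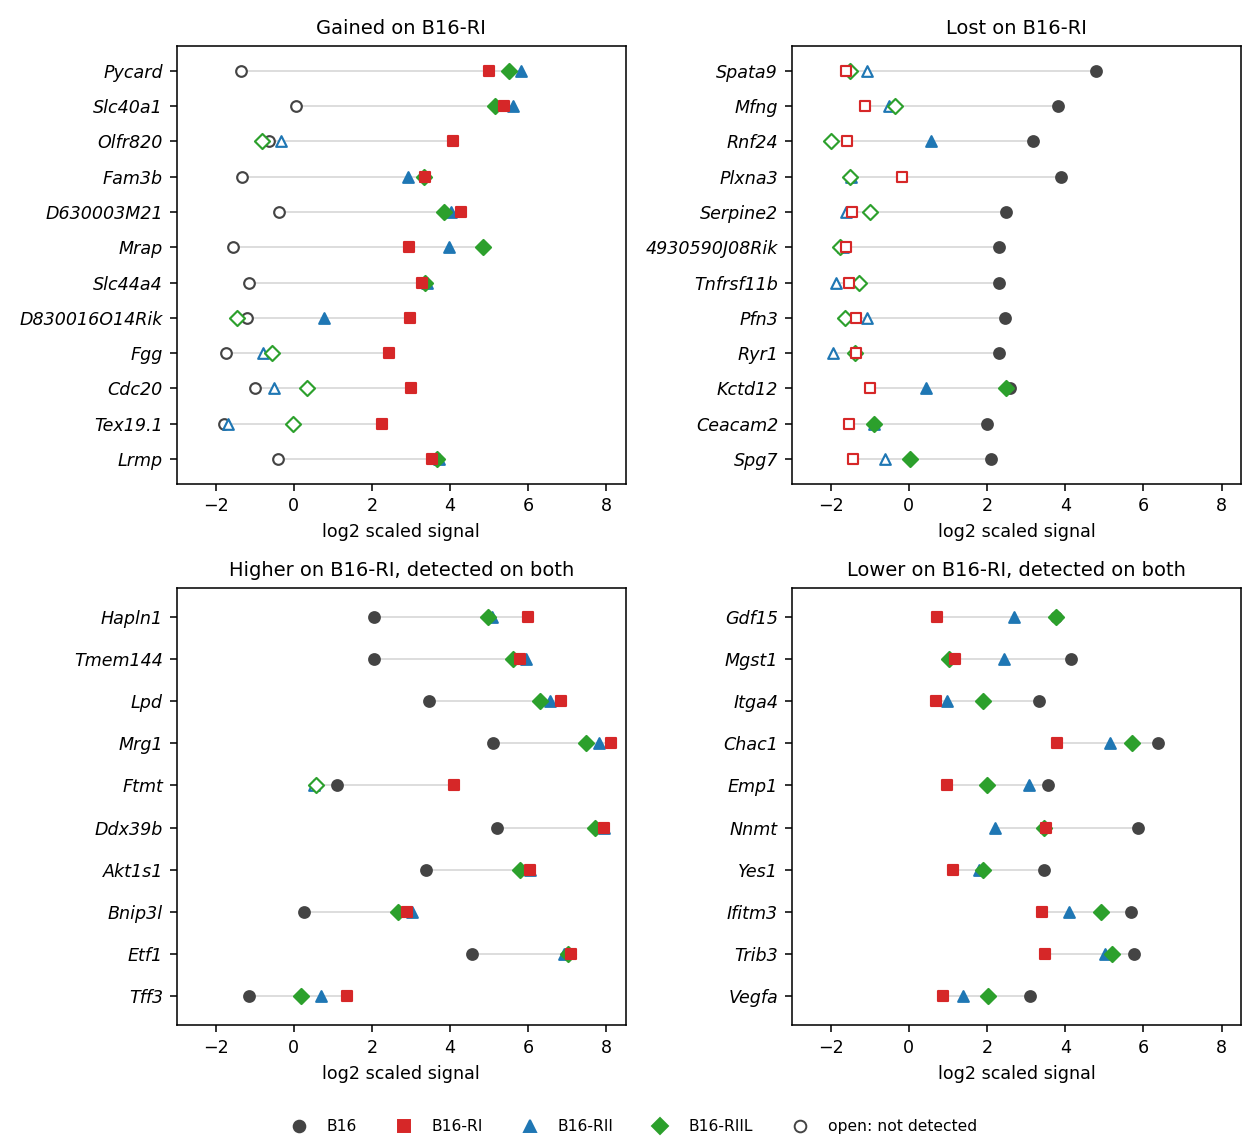
Log2 scaled signal (x axis) on the 4 arrays for the 12 gained, 12 lost, 10 higher and 10 lower genes with the largest differences between B16-RI and B16, 1 point per array and open points where the probe was not detected. For 7 of the 12 gained genes the 3 passaged lines sit together on the right, and for most lost genes they sit together on the left.

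Lower signals on B16-RI were followed on the later arrays. Of 357 lower probes, 69.5% on B16-RII and 44.0% on B16-RIIL had a signal nearer to that of B16-RI than to that of B16, on the log2 scale, against 72.8% and 67.3% of 162 higher probes. The difference between these shares was not tested. Gdf15, a stress-induced cytokine, read 13.6 on B16, 1.64 on B16-RI, 6.51 on B16-RII and 13.6 on B16-RIIL. Its fall of 8.26-fold was the largest among lower genes and was not seen on B16-RIIL. Emp1, a membrane protein, read 11.8, 1.97, 8.34 and 4. Itga4, the integrin subunit that binds VCAM-1 and fibronectin, read 10.0, 1.61, 1.98 and 3.70. Nnmt, which methylates nicotinamide, read 58.2, 11.3, 4.6 and 11. Mgst1, a membrane-bound glutathione transferase, read 17.8, 2.26, 5.39 and 2.03. For the last 3 genes every passaged line stayed at least 2-fold below the parent. Yes1, a kinase of the Src family, read 11, 2.18, 3.44 and 3.73. Ifitm3, an interferon-induced membrane protein, read 51.6, 10.6, 17.1 and 30.3. Both were lowest on B16-RI.

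Several of the lower genes are known stress genes. In the list of heat shock and unfolded protein response genes, 31 were detected, of which 5 were lower, 1 was lost, and 0 were gained or higher, with a median difference of -0.11 over the list. Over all 9159 named genes 4.83% were gained, 1.18% higher, 2.1% lower and 6.76% lost, and with 1 array per line a list's count beside these shares is a description. Chac1, which degrades glutathione, read 82.4 on B16, 13.7 on B16-RI, 35.7 on B16-RII and 52.1 on B16-RIIL. Trib3, a pseudokinase, read 54.4, 11.2, 32.5 and 36.4 in the same order. Ddit3, also called CHOP, read 64.6, 17.6, 28.2 and 47.7. Atf3, a transcription factor, read 12.7, 3.66, 4.42 and 5.92. In all 4 genes B16-RI was the lowest of the 4 lines, and both later lines lay between it and the parent. Ern1, the endoplasmic reticulum stress sensor IRE1, read 3.71 and 1.49 and was not detected later. The probe for Hspa8, a constitutive chaperone, was dim, at 3.17 on B16 and 1.20, not detected, on B16-RI. Among other chaperones of the list, none of which was called, Hspa5 had the largest increase of the whole list, by 0.53, and Dnajc3 differed by 0.45, Hsp90ab1 by 0.16, Dnaja1 by -0.28 and Dnajb1 by -0.39. Atf4, the factor upstream of Ddit3, Trib3 and Chac1 in the integrated stress response, differed by -0.47, Herpud1 by -0.78, Sesn2 by -0.70 and Asns by -0.28, and none of them was called.

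The start regions of these genes were read from the RefSeq promoter table for GRCm38.p6, as 250 bases before and 50 bases after the annotated start. The windows of Chac1, Trib3, Atf3 and Ddit3 are shown because these genes differed most in the list, with matches to TGATGNAA in capitals. Composite elements of this kind are known to be bound by ATF4 with its C/EBP partners. Both strands were searched, and a match on the other strand is read as its reverse complement.
Chac1, chr2:119350992-119351291, plus strand: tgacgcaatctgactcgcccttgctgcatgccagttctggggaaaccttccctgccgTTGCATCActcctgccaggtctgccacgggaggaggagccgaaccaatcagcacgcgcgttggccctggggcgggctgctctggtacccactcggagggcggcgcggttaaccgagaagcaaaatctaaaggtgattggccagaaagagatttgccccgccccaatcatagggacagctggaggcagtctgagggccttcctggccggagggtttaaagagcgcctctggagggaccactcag
Trib3, chr2:152344011-152344310, minus strand: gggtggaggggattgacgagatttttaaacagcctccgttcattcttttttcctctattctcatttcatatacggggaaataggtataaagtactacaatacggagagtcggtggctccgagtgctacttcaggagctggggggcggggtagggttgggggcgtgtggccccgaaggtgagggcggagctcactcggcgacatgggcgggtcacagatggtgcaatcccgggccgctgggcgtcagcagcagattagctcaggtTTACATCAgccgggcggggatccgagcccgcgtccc
Atf3, chr1:191183284-191183583, minus strand: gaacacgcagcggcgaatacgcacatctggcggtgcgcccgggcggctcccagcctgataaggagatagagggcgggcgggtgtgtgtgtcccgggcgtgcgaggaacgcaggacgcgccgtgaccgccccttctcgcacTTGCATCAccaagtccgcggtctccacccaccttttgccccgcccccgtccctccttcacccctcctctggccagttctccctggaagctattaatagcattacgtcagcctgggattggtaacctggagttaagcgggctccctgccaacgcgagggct
Ddit3, chr10:127290543-127290842, plus strand: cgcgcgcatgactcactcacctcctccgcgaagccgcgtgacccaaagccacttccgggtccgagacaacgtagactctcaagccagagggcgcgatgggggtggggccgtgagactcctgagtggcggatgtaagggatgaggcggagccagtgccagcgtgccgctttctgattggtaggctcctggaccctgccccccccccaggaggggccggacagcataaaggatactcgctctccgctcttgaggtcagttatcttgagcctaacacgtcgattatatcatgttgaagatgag
The first 3 windows each held 1 match and the window of Ddit3 held 0. Over the 5 lower or lost genes of the list with an entry in the table, 3 held a match, and over the other 21 detected members 2 did, 1 of them Herpud1. Of all 27025 promoters 4.51% held a match, and of the 7115 genes detected on B16 or B16-RI 2.84%. The share was 6.21% of 145 lower, 4.72% of 466 lost, 4.35% of 299 gained and 1.35% of 74 higher genes. Another 4 motifs were searched in the same windows on both strands. The AP-1 motif TGANTCA was held by 1 of the 5 genes. The E-box CACGTG, the M-box core TCATGTG and the interferon-stimulated response element were held by 0 of them. Matches of different motifs were counted separately, also where they overlap. Over all promoters the shares were 8.97% for TGANTCA, 8.09% for CACGTG, 4.31% for TCATGTG and 3.99% for the interferon-stimulated element. A match is a run of letters and not a measured binding site.

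**Figure D4:**
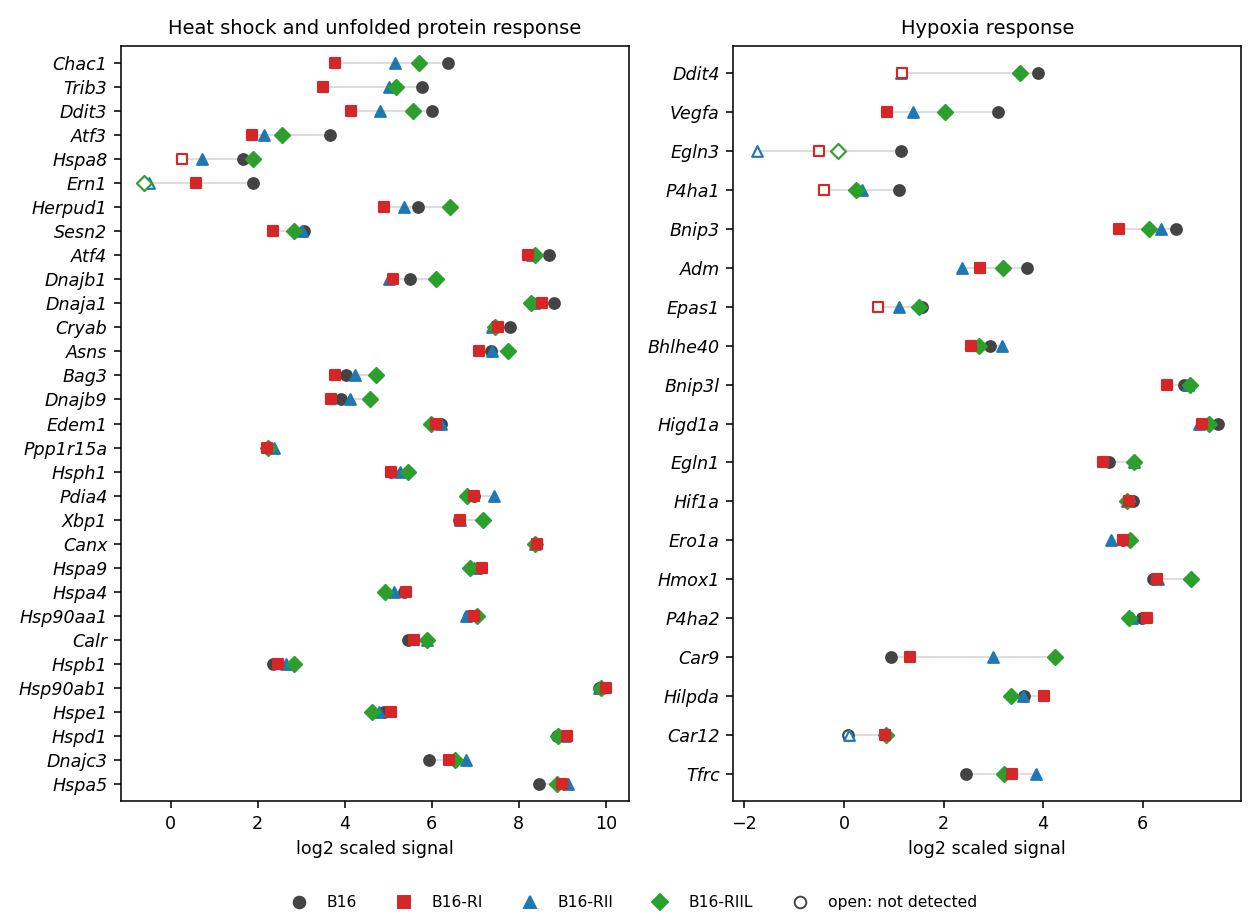
Log2 scaled signal (x axis) on the 4 arrays for each detected member of the heat shock and unfolded protein response list (left) and of the hypoxia response list (right), ordered by the difference between B16-RI and B16, with open points where a probe was not detected. Chac1, Trib3, Ddit3 and Atf3 at the top of the left panel read lowest on B16-RI, Hspa8 and Ern1 follow, and 0 genes below Ern1 were called between B16 and B16-RI.

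Among hypoxia genes the called members were below B16. Of 19 detected hypoxia genes 2 were lower, 3 lost and 0 gained or higher, with a median difference of -0.32, and 6 of 19 differences were above 0. Among all named genes too, calls below B16, at 2.1% lower and 6.76% lost, outnumbered those above, at 4.83% gained and 1.18% higher. Vegfa, which drives growth of blood vessels, read 8.6 on B16, 1.83 on B16-RI, 2.63 on B16-RII and 4.10 on B16-RIIL, and a second probe read 4.53, 2.18, not detected, 1.38 and 2.49. The call of the second probe was lost under at least 1 other scaling. Ddit4, an inhibitor of mTOR complex 1, read 14.9, then 2.23 and 2.22, not detected, then 11.6 on B16-RIIL. Bnip3, a mitophagy receptor, was lower by 2 probes, which read 103 and 60.9 on B16 and 46.3 and 24.6 on B16-RI. P4ha1, a subunit of the enzyme that hydroxylates collagen, went from 2.15 to 0.75, not detected, and Egln3, an oxygen-sensing hydroxylase, from 2.22 to 0.71, not detected. Car9, a carbonic anhydrase and common hypoxia marker, read 1.93, 2.5, 8.01 and 18.9, and Hif1a differed by -0.08. Of 25 glycolysis genes 4 were lost, 1 lower and 1 gained, with a median of -0.35 and 5 of 25 differences above 0. The lost members Eno2, Pfkfb4, Slc16a3 and Pgam2 were dim on B16, at 2.21, 1.86, 1.73 and 1.20. Pck2, which makes phosphoenolpyruvate in mitochondria, read 57.2, 26.2, 35.5 and 53.8, and its call was lost under at least 1 other scaling. The 5 glycolysis genes brightest on B16 were not called and lay at or below the parent, with differences of -0.01 for Ldha, -0.36 for Pgk1, -0.39 for Gpi1, -0.25 for Pgam1 and -0.64 for Aldoa.

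Secreted factors that act on vessels gave mixed results. Both probes for Spp1 were gained. The brighter read 1.87, not detected, on B16, 19.2 on B16-RI, 63.0 on B16-RII and 79.3 on B16-RIIL, and the dimmer read 0.48, not detected, 3.40, 7.77 and 8.74. On each probe the later lines stood above B16-RI. The first round made up at least 10.3-fold by the brighter and at least 7.09-fold by the dimmer probe. Of 22 lymphatic and vascular growth factors on the array 8 were detected. Vegfc, the main ligand of the lymphatic receptor VEGFR-3, read 11.4, 12.8, 16.3 and 20.5, and Vegfb 96.1, 94.4, 126 and 124, neither called between B16 and B16-RI. Angpt2 differed by 0.54, Pdgfa by -0.14 and Adm by -0.94. Igf2 went from 1.95 to 0.95, not detected, a call that was lost under at least 1 other scaling.

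Adhesion and matrix genes were called in both directions, and their counts stand against 4.83% gained, 1.18% higher, 2.1% lower and 6.76% lost of all named genes. Of 19 detected integrin and focal adhesion genes 3 were gained, 2 lower and 1 lost. Itgb2, the beta chain of leukocyte integrins, went from 0.50, not detected, to 2.20, with 1.77 and 2.78 later. Itga8 went from 0.81, not detected, to 2.93, with 1.82 and 1.40 later. Itgb3, the partner of the alpha v chain in a receptor for osteopontin, went from 0.65, not detected, to 2.66 and was not detected later. Itgb5, another partner of the alpha v chain, was lost with S/N of 3.04 on B16, from 2.31 to 0.72, and was not detected later. Vinculin, Vcl, which links integrins to actin, read 11, 3.71, 2.81 and 6.12. Of 26 collagen, laminin and matrix genes 2 were gained, 2 higher, 1 lower and 4 lost. Ccn2, connective tissue growth factor, went from 2.15 to 8.44 and read 4.05 and 2.11 later. Fbln1, fibulin-1, read 33, 11, 17.4 and 9.3. Of 26 matrix proteases and inhibitors 2 were gained, 2 lower and 4 lost. Besides Adamts5 and Serpine2, Plat, tissue plasminogen activator, went from 3.52 to 0.46, not detected, and stood at 2.20 on B16-RIIL, and Hpse, heparanase, went from 2.63 to 0.75, not detected, with 1.57 and 1.47 later. Of 19 cadherin and junction genes 2 were lost, Cdh13 from 5.86 to 0.60 and Cdh1, E-cadherin, from 1.22 to 0.31, and 0 were called in the other classes. Cdh1 was at 1.19 again on B16-RIIL.

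Among receptors and growth factor pathways, guidance genes had 6 of 26 detected members lost, 1 lower and 1 gained, with a median of -0.30. The counts of this paragraph stand beside 4.83% gained, 1.18% higher, 2.1% lower and 6.76% lost of all named genes. As over all named genes, losses outnumbered gains in the guidance list and in the next. Sema7a was lost by both of its probes, from 4.16 to 1.20 and from 1.31 to 0.46, and the brighter read 3.34 and 4.32 later. Receptor tyrosine kinases and melanoma receptors had 4 lost and 2 gained of 20. Ednra, an endothelin receptor, went from 4.81 to 0.68 and was not detected later. Mertk, a receptor that binds Gas6 and Protein S, was gained with S/N of 25.5, from 0.53, not detected, to 5.41, and was not detected later. Gpr37, an orphan receptor, went from 0.52, not detected, to 2.23, with 3.53 and 14.8 later. In the TGF-beta and BMP list 5 of 31 were lost, 4 lower, 2 higher and 1 gained. Tgfb1 went from 2.36 to 0.69, not detected, Bmp4 from 1.75 to 0.46, not detected, and the activin receptor Acvr1b from 3.59 to 0.41, not detected, and each was detected again on B16-RIIL. Of the Id genes, which are targets of BMP signals, Id1 was higher, from 2.10 to 9.61, with 4.79 and 7.80 later. Id3 was gained at S/N of 3.42, from 0.46, not detected, to 1.67, and read 3.02 on B16-RII and 0.55, not detected, on B16-RIIL. Id2 differed by 0.93 and was not called. Smad7, an inhibitor of the pathway, was also higher, by 1.12. Of 25 Wnt genes 2 were gained, 2 higher and 1 lost, with a median of 0.26, and Wnt6 read 5.10, 10.9, 15.8 and 15. In the list of MAPK feedback and immediate early genes 3 of 35 were lost, 1 lower and 1 gained.

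Immune genes were called in both directions, against 4.83% gained, 1.18% higher, 2.1% lower and 6.76% lost of all named genes. Cxcl10, an interferon-induced chemokine, read 61.6 on B16, 195 on B16-RI, 220 on B16-RII and 156 on B16-RIIL. Of 23 detected interferon response genes 3 were gained, 1 higher and 2 lower, with a median of -0.09 and 11 of 23 differences above 0. Besides Ifitm3, given above, Irf9, a transcription factor of the interferon response, was lower, at 6.66 and 3.22, a call that another scaling removed, and read 6.4 and 7.36 later. Ifi47, an interferon-induced GTPase, went from 0.81, not detected, to 3.04, with 4.62 and 5.09 later, whereas Tgtp1 and Gbp4, GTPases of related kinds, were detected on B16-RI alone, at 3.80 and 1.29 and with S/N of 5.56 and 4.09. Of 12 genes of MHC class I and peptide loading 2 were gained, H2-Q1 at 3.32 with S/N of 5.31 and Psmb9 at 1.65 with S/N of 3.48, and both were detected on B16-RI alone. H2-Q1 belongs to a family of near-identical genes that a probe may not tell apart. Of 23 chemokines, cytokines and receptors 2 were gained, 1 higher, 1 lower and 2 lost. In the complement list 1 of 7 was gained and 2 were lost, and Cfi, a protease that inactivates complement fragments, read 0.35, not detected, 2.66, 5.62 and 7.54.

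Transport, redox and pigment genes gave both kept and transient changes, and their counts too stand beside 4.83% gained, 1.18% higher, 2.1% lower and 6.76% lost of all named genes. Of 21 solute and amino acid transporters 4 were gained, 1 higher and 2 lost. Besides Slc44a4, its relative Slc44a3 read 5.59, 21.3, 41.7 and 53.3. Both ecto-ADP-ribosyltransferases that were detected, of 8 on the array, were above B16: Art3 read 6.15, 30.6, 36.0 and 28.1, beside Art4 given above. Of 18 ABC transporters 3 were gained, 1 lower and 1 lost, and Abcg2, a drug exporter, read 16.3, 6.6 and 2.53 and was not detected on B16-RIIL, a call that another scaling removed. Of 42 glutathione and antioxidant genes 3 were gained, 1 higher, 2 lower and 1 lost. Gpx3, the secreted glutathione peroxidase, went from 7.72 to 0.77, not detected, with 1.05 on B16-RII, and Gsta4, a glutathione transferase, read 2.59, 6.84, 14.3 and 15.1. Of 19 pigment and melanosome genes outside the marker list 2 were gained, 1 lower and 0 lost. Oca2, a melanosome transporter known from albinism, read 15.2, 4, 9.01 and 6.24. The metastasis suppressor Cd82 went from 2.67 to 0.97, not detected, and read 2.61 on B16-RIIL.

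Genes of core functions were read against the same shares of all named genes, 4.83% gained, 1.18% higher, 2.1% lower and 6.76% lost. Of 59 cytosolic ribosomal protein genes 0 were called, with a median of 0.09 and 53 of 59 differences above 0. Of 33 cholesterol and fatty acid synthesis genes 0 were called, with a median of 0.04. Oxidative phosphorylation had 1 gained and 1 lost of 53, apoptosis genes 1 lost of 27, and the tricarboxylic acid cycle list 1 higher of 22, the malic enzyme Me1, by each of its 3 probes and at 74.8 and 160 on the brightest. For 2 of these probes the call was lost under at least 1 other scaling. Of 56 cell cycle genes 2 were gained and 4 lost, yet 43 of 56 differences were above 0, with a median of 0.21. The lost members Cdk2, Cdk6, Cdkn2c and Cdkn1c were dim on B16, at 3.97, 4.02, 2.89 and 2.19. Of the gained members, Rb1, the retinoblastoma gene, went from 0.60, not detected, to 2.27 with S/N of 4.25. It read 2.70 on B16-RII and was not detected on B16-RIIL. Tyms, which makes thymidylate, was at the limit with a gain of at least 2.09-fold that another scaling removed. Of 34 EMT and cell shape regulators 1 was gained, 1 higher and 0 lower or lost, the higher one being S100a6 at 2.33, 8.06, 2.68 and 7.77, and Snai1 was gained at 0.99 with S/N of 3.7. Counts for the remaining lists were 1 gained, 1 lower and 1 lost of 34 lysosome and cathepsin genes, 1 gained, 1 lower and 2 lost of 24 metastasis suppressors and tetraspanins, and 2 lost of 10 histone genes.

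**Figure D5:**
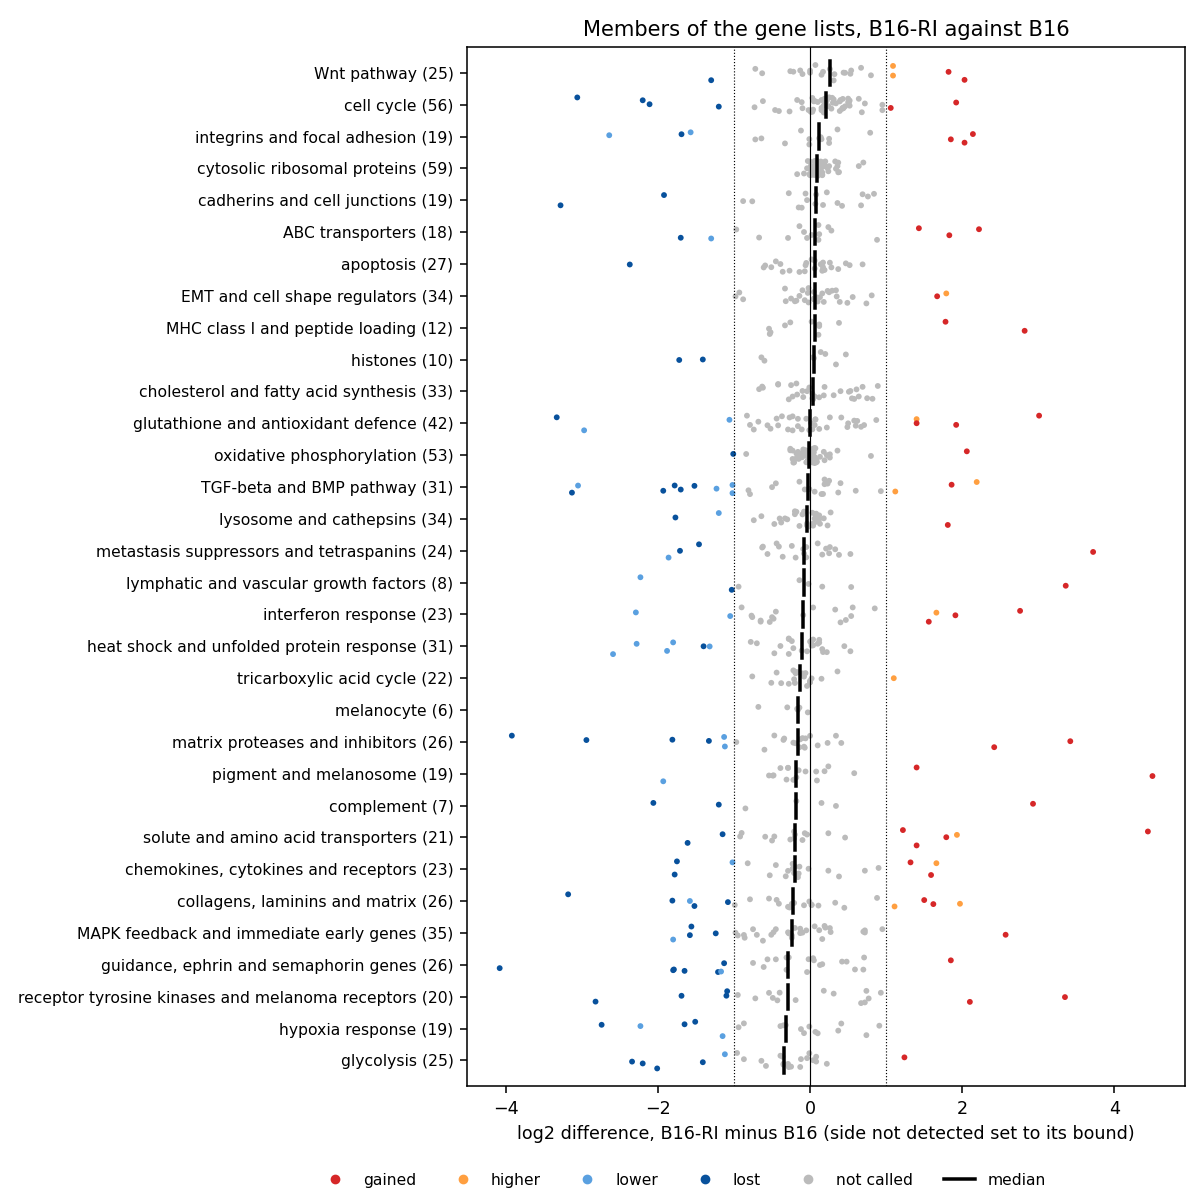
Log2 difference of B16-RI minus B16 (x axis) for each detected member of the lists with at least 5 detected genes, 1 probe per gene and the number detected in brackets, coloured by class, with a bar at the median. Medians run from -0.35 for glycolysis to 0.26 for Wnt genes, within the 2-fold limits drawn as dotted lines.

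Calls were compared between probes of the same gene. Of 33 genes with a gained probe and another detected probe, 2 had another probe called above B16, 2 one called below and 29 none called. Of 60 genes with a lost probe and another detected probe, 7 had another called below and 53 none called. Of 19 genes with a lower probe 4 had another called below and 3 one called above, and of 10 with a higher probe 1 had another called each way. Probes of a gene can read different transcript ends, and which of a disagreeing pair reads the main transcript was not tested. Spp1, Vegfa, Bnip3, Sema7a and Me1 are the named genes here with repeated calls, and Cd79a, Cdc20, Bnip3l and Spg7 those where another detected probe was not called. For Itga4, Loxl2, Eno2, Acvr1b and Egr3 the second probe was not detected on either line.

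By chromosome, the median difference of genes detected on both lines, relative to all such genes, was -0.12 on chromosome 15 (301 genes) and 0.10 on chromosome 16 (232 genes). The other chromosomes lay between -0.06 and 0.05. With quantile normalization of the 2 raw columns the values were -0.13 and 0.10, and the others lay between -0.05 and 0.04.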

How the data were processed

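Digoxigenin-labelled cRNA of 4 cultured lines was read by chemiluminescence on the Applied Biosystems whole-genome mouse array, with 1 array per line in the labels, although their design text describes duplicates. Second arrays, 20 columns of per-sample values that match no sample of the labels, and 24 columns of the authors' ratios and log2 values were not used. The authors deposited raw and normalized intensity for 33012 probes, with a signal-to-noise ratio and a flag, which are scores of the analyzer. The deposited normalized intensity is the raw intensity divided by 1 of 2 constants per array, for 16524 and 16488 probes, and was not quantile normalized.

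B16-RI values of each probe set were divided by the median ratio to B16 over probes detected on both, which removed 0.39 and 0.07 log2 units. The limits were S/N of at least 3, a flag of at most 5000 and 2-fold. Detected probes numbered 14375 on B16 and 13872 on B16-RI, and precision is limited by there being 1 array for each line. A list was described with 1 probe per gene, the brightest over the pair. Genes were named by a rule: Spp1; the 12 gained, 12 lost, 10 higher and 10 lower genes with the largest differences that kept their call under every scaling; up to 5 called members of each list; and markers. Other genes named were chosen after their values were seen. The summed level of the B cell list and 1 of its members are not reported here. Members, rule and lists were chosen with earlier results of these data known. Names came from the RefSeq table of GRCm38.p6, which matched 16186 of 17302 probes with a symbol; 391 probes with several symbols were left unnamed. Alternatives were 5 scalings, other limits of detection and fold, and other choices of probe. Python 3.11.15, numpy 2.4.6, pandas 2.3.3, statsmodels and scipy were used, and the class rules were tested on simulated arrays.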

Additional observations from a re-analysis of the deposited data

How the results depend on the processing

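No paired analysis was possible because the labels give 1 array per line and only labelled arrays were used, and for the same reason no replicate was left out. Against 1069 gained and 1498 lost probes, a limit of detection at S/N of 5 gave 461 and 709, a limit at 10 gave 130 and 204, and a fold limit of 4 gave 354 and 467. The limit at 10 also moves probes detected on both arrays into these classes, since 76 of the 1069 and 81 of the 1498 had S/N of at least 10 on the brighter array. An alternative chosen after seeing the data, S/N of at least 10 on the brighter array and under 1 on the other, held for 40 and 35. Higher probes, 162, became 409 in the deposited signal without centring, 253 with quantile normalization and 328 with median scaling of the raw signal, 96 and 50 at S/N of at least 5 and 10, and 693 and 25 at fold limits of 1.5 and 4. Lower probes, 357, became 200 in the deposited signal without centring, 193 and 88 at S/N of at least 5 and 10, and 1195 and 20 at fold limits of 1.5 and 4. The deposited signal without centring raised the share of gained probes detected on B16-RII to 34.1%, S/N of at least 5 raised that on B16-RIIL to 35.3%, and a fold limit of 4 lowered those of lost probes to 26.8% on B16-RII and 25.2% on B16-RIIL. The deposited signal without centring moved the median of all genes to 0.20, and list medians, taken relative to it, moved by under 1.5-fold in 224 of 224 cases. Since the list medians lay between -0.35 and 0.26, a median could vanish and still pass this limit, which therefore cannot show that they are stable. Calls held under all 5 scalings for 1043 of 1069 gained, 140 of 162 higher, 193 of 357 lower and 1267 of 1498 lost probes. The genes with the largest differences were chosen for this, so their stability under scaling says nothing. Counts over the lists moved in 93 of 448 cases, 43 of them where only probes detected on both arrays were kept. The cause of the other changes was not tested. Weak signals limit the gained and lost classes, and with 1 array per line in use no difference has an error.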
